A study of Caenorhabditis elegans with 34 samples.

Results

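The 150 genes described here were those with the largest deficit in dissociated cells relative to whole third-stage larvae (L3) of Caenorhabditis elegans, among genes that were not at least 2-fold higher in the intestine-marked cells of the same stage. They were chosen from the 16762 genes of the expression table by 3 values, each from means of the deposited normalized counts (raw counts times a constant per library) over the L3 libraries of a fraction. The first, D, is log2 of dissociated cells over whole larvae after adding 10 to each mean. The second, E, is log2 of GFP-positive over GFP-negative sorted cells, made the same way. The third is the mean in whole larvae. Genes with a whole-larva mean of at least 100 and E below 1 numbered 7500, and the 150 with the lowest D were taken. The tables pair no row with a gene name or identifier, so single genes are given by their row number. No marker of intestine or of any other tissue could be looked up, and the purity of the sorted fractions was not checked against markers. For the same reason no function or sequence can be given for any member.

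The series compared fractions of animals of the strain JM149, which carries the transgene caIs71, a histone-tagged GFP under the elt-2 promoter together with the marker rol-6(su1006). All groups carry it. ELT-2 is a GATA transcription factor of the intestine, and its promoter marks intestinal nuclei, so a GFP-positive gate stands for intestinal cells and a GFP-negative gate for the cells of other tissues. The remaining larval tissues are hypodermis, which secretes the collagen-rich cuticle and renews it at each molt, and muscle, pharynx, neurons, gonad and a few smaller types. Polyadenylated RNA was sequenced from GFP-positive cells (300000 sorted per library), GFP-negative cells (1000000 per library), unsorted dissociated cells and packed whole animals, in mixed embryos, first-stage larvae (L1) and L3. Larvae were opened with SDS-DTT for 2 min and pronase E for 30 min and then 100 strokes of a dounce. Embryos were opened with chitinase for 20 min and pronase E for 5 min and then 100 strokes through a syringe needle, so stage and protocol cannot be told apart. Whole animals were not taken through these steps.

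In embryos there were 3 GFP-positive, 3 GFP-negative, 2 dissociated and 2 whole libraries, in L1 2 of each fraction, and in L3 3 of each. The labels call them biological replicates. Library totals lay between 14608535 and 49077624 counts in L1, between 20252498 and 49400873 in embryos and between 10994387 and 26523420 in L3. Some libraries stood apart. In L3, the GFP-positive library of replicate 2 held more of the members than replicates 1 and 3. In L1, replicate 1 was run on a HiSeq X-ten and replicate 3 on another sequencer, and the whole libraries of these replicates differed widely from each other over the members. The counts of calls that these libraries enter are given with and without GFP-positive L3 replicate 2 or whole L1 replicate 3.

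At L3, where the members were chosen, the median member had 165, 173 and 126 normalized counts in the 3 dissociated libraries, against 725, 653 and 592 in the 3 whole libraries. Each dissociated library lay below each whole library. Over all genes that met the level and E limits, the medians were 965, 894 and 892 in dissociated cells and 810, 793 and 826 in whole larvae. D ran from -3.69 to -1.54 over the members, with a median of -1.83. The 3 last members inside the limit had D of -1.55, -1.54 and -1.54, and the 3 genes just outside it -1.54, -1.53 and -1.52. These values chose the members and carry no test.

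**Figure D1:**
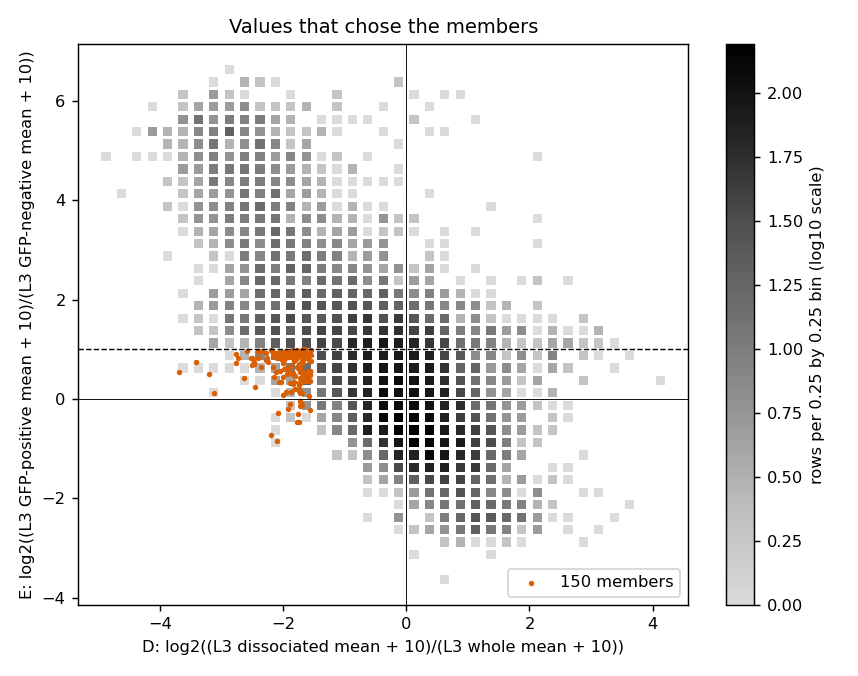
The plane of the values that chose the members, with D on the horizontal and E on the vertical axis, both log2. Grey squares count all genes with a whole L3 mean of at least 100 in bins of 0.25 by 0.25, orange points are the 150 members and the dashed line is E of 1. Most members sit between E of 0 and the dashed line, on the lower edge of a larger body of genes with low D and high E.

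The set was put together as genes from outside the intestine, yet most members had a higher mean in GFP-positive than in GFP-negative L3 cells. E was above 0 in 137 of the 150 members (91.3%), against 38.2% of the 7500 genes that met the limits, and above 0.5 in 100 members (66.7%, against 18.9%). The median E was 0.66 over the members and -0.29 over those 7500 genes. By the rule no member could reach E of 1, so their excess in GFP-positive cells is at most modest. E under -0.5 was found in 2 members. Most of the excess came from 1 library: without GFP-positive replicate 2 the median E was 0.29, and 100 members were above 0. Within equal replicate numbers, the median log2 ratio of GFP-positive to GFP-negative cells over the members was 0.21, 1.09 and 0.20 in replicates 1, 2 and 3, and over all genes 0.24, 0.08 and 0.0. In replicate 1 the members were thus not above all genes. The rule used E, so these values are descriptions and carry no test. Made from the L1 and embryo sorts, given below, the same ratio had medians of -0.71 and -0.60 over the members, the other way. Over the 7500 genes that met the limits, its medians there were -0.18 and -0.45.

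The same library set which genes were members. Applied without GFP-positive replicate 2, the rule returned 26 of the 150 genes (17.3% of each list). Leaving out GFP-positive replicate 3 returned 55.3%, and leaving out each of the other 10 L3 libraries in turn returned between 71.3% and 92.0%. With E required to be below 0, 13 of the 150 genes (8.67%) stayed in a list of the same length, whose median D was -0.89. Deficits in dissociated cells of the size seen in the members were therefore rare among genes with a lower mean in GFP-positive L3 cells.

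Both sorted L3 fractions held less of the members than whole larvae did. The median member had 131, 224 and 83.7 normalized counts in the 3 GFP-positive libraries and 105, 99.4 and 84.9 in the 3 GFP-negative libraries, against 725, 653 and 592 in whole larvae. In GFP-negative cells 149 of 150 members had every library below every whole library and 0 had the reverse (37.5% and 29.6% of all 16758 genes tested). In GFP-positive cells 138 members had every library below and 0 every library above (16.6% and 14.7% of all genes). The quasi-likelihood test of edgeR with Benjamini-Hochberg adjustment, in which a gene is called at an adjusted p under 0.05, called 129 members lower and 0 higher in GFP-negative cells than in whole larvae (21.5% and 20.8% of all genes), with a median log2 fold change of -2.46. In GFP-positive cells 15 members were called lower and 0 higher (0.346% and 1.16% of all genes), with a median of -1.92. Without GFP-positive replicate 2, an alternative added after the data were seen, 27 members were called lower and 0 higher (0.865% and 1.06% of all genes), the median was -2.39 and every library was below in 141 members (21.3% of all genes). The dissociated libraries gave 77 lower and 0 higher (11.5% and 7.85% of all genes), and in 145 members each dissociated library was below each whole library, with 0 the other way (28.6% and 23.8% of all genes). Between GFP-negative and unsorted dissociated L3 cells 0 members were called lower and 0 higher (2.66% and 0.358% of all genes), and 2 had an unadjusted p under 0.05, at a median log2 fold change of -0.48. The whole L3 libraries in these contrasts chose the members, so the counts are descriptions. In the L3 sort itself 2 members were called, both higher in GFP-positive cells (18.8% of all genes were higher and 19.0% lower), and the gates did not overlap in 20 members, all with GFP-positive cells above (27.0% of all genes were above and 25.5% below). These were rows 12590 and 8832, at log2 fold changes of 0.82 ± 0.30 and 0.85 ± 0.32 (SE), singled out after their values were seen. Without GFP-positive replicate 2, row 12590 was called higher and 0 members lower (18% and 15.9% of all genes), and the median log2 fold change was 0.14 over the members and 0.11 over all genes, against 0.56 and 0.13 with all libraries. The gates then did not overlap in 27 members with GFP-positive cells above and 10 with them below (33.0% and 27.8% of all genes).

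For comparison, the 150 genes of lowest D with E of at least 1 were followed through the same libraries. Their median E was 4.91 and their median D -3.43. In GFP-positive L3 cells, relative to whole larvae, the median log2 fold change was -1.92 for the members and -0.68 for these comparison genes. In GFP-negative L3 cells it was -2.46 for the members and -5.88 for the comparison genes. The members were thus low in both gates, and the comparison genes mainly in the GFP-negative gate. The difference between the lists follows in part from the limit on E that separates them and was not tested.

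As a share of all counts, the members took 0.393 ± 0.18% in GFP-positive L3 cells, 0.247 ± 0.0683% in GFP-negative cells and 0.369 ± 0.0716% in dissociated cells, against 1.12 ± 0.133% in whole L3 larvae (SD, n = 3 each). GFP-positive replicate 2 held 0.596%, and the other 2 GFP-positive libraries 0.334% and 0.25%. In these bulk libraries, fewer cells of a type and less RNA per cell cannot be told apart. Without row 10853, the member with the most counts in whole L3 larvae, the means were 0.300, 0.195 and 0.285% in those 3 cell fractions, against 0.906% in whole larvae.

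**Figure D2:**
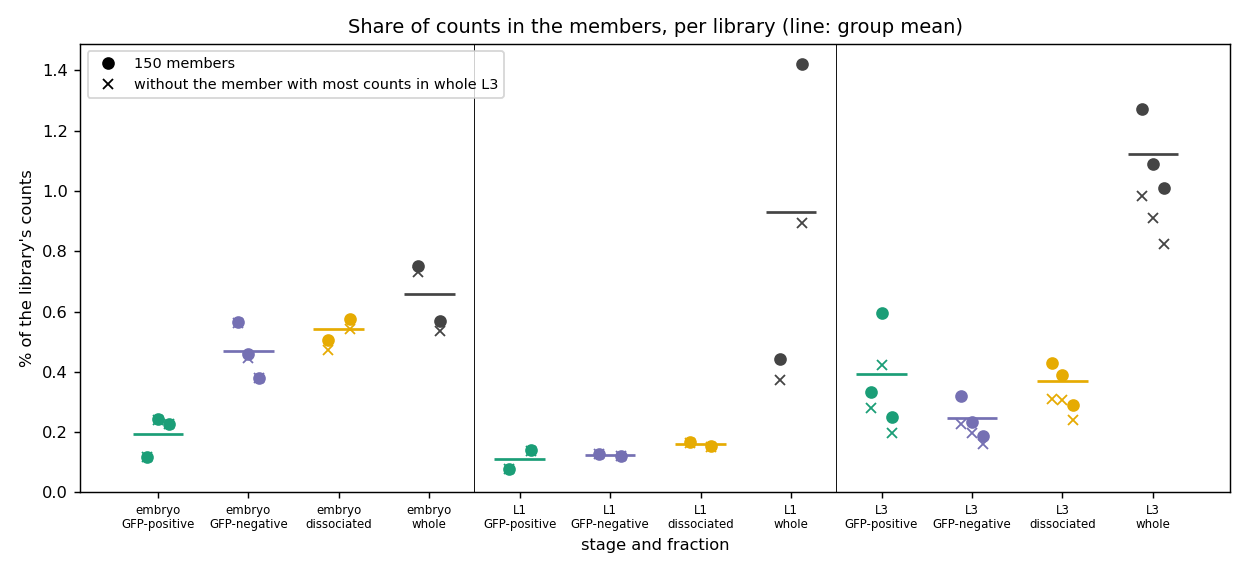
Share of each library's counts that fell in the 150 members, in percent, by stage and fraction. Circles are libraries, lines are group means and crosses leave out the member with the most counts in whole L3 larvae. The 3 whole L3 libraries lie between 1.01 and 1.27% and above all other L3 libraries, and the 2 whole L1 libraries lie far apart at 0.441 and 1.42%.

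Row 16491 had the lowest D, at -3.69. It had 132, 54.2 and 41.9 normalized counts in dissociated L3 cells, against 1420, 810 and 1069 in whole L3 larvae. In sorted L3 cells it had 48.8, 201 and 0 in GFP-positive libraries and 85.9, 33.1 and 42.8 in GFP-negative libraries. Its whole L3 libraries were all higher than any cell library of that stage. At the earlier stages whole animals had hardly any, with 3.93 and 1 in whole L1 larvae and 0 and 1.98 in whole embryos. Dissociated and sorted cells of those stages held up to 89.4, in embryo GFP-negative replicate 1. In GFP-negative embryo cells it had 89.4, 6.18 and 7.84, against 0 and 1.98 in whole embryos, and the fitted log2 fold change was 5.11 ± 1.71 (SE, edgeR adjusted p = 0.0409). Without GFP-negative replicate 1 that value was 2.82 and was no longer called.

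Row 3049 followed with a D of -3.41. It had 102, 173 and 48.3 normalized counts in dissociated L3 cells, against 1455, 1215 and 1056 in whole L3 larvae. In L1 it had 39.2 and 25.5 in dissociated cells, against 108 and 741 in whole larvae, so the fractions did not overlap there either. That difference was -3.51 ± 0.77 (SE, edgeR adjusted p = 0.00565). Without whole L1 replicate 3 it was -1.57 and was not called.

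The members with the most counts in whole L3 larvae were rows 10853 and 7239. Row 10853 had 31977, 22319 and 12596 normalized counts in dissociated L3 cells, against 94710, 53854 and 56268 in whole larvae. Its GFP-positive libraries had 14512, 49877 and 16793, so that replicate 2 came close to the lower whole libraries, and its GFP-negative libraries had 26316, 10194 and 7220. Row 7239 had 2594, 3689 and 2797 in dissociated cells, against 19150, 16781 and 14960 in whole larvae, with no overlap. Counts of different rows are not adjusted for gene length, so they rank rows by counts and not by level.

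Whole animals of the 3 stages were compared next. Of the 150 members, 106 had their highest whole-animal mean in L3 (70.7%, against 27.9% of the 7500 genes that met the limits), 35 in L1 and 9 in embryos. The median member mean was 91.7 normalized counts in whole embryos, 338 in whole L1 and 649 in whole L3. The other fractions of each stage lay lower, at 22 in GFP-positive, 39.8 in GFP-negative and 60.9 in dissociated embryo cells, and at 30.7, 62.7 and 49.0 in the same fractions of L1. The mean in whole L3 had to reach 100 and is also the lower term of D, so the choice favours genes that are high in whole L3, and this order is a description only. Between whole L1 larvae and whole embryos, which the rule did not use, 45 members were called higher in L1 and 11 lower (26.3% and 26.2% of all genes). The higher count, 30.0% of the members, was near that of all genes, and the lower count, 7.33%, was below it. Their median log2 fold change was 1.02, and that of all genes 0.19. Without whole embryo replicate 3 the count of higher members was 28 (18.7%, against 13.8% of all genes). Without whole L1 replicate 3, 43 were higher and 26 lower, so that 17.3% of the members were lower, against 23.4% of all genes, and the median was 0.24, against -0.02 over all genes. By limma voom 28 members were lower (18.7%, against 29.0% of all genes).

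**Figure D3:**
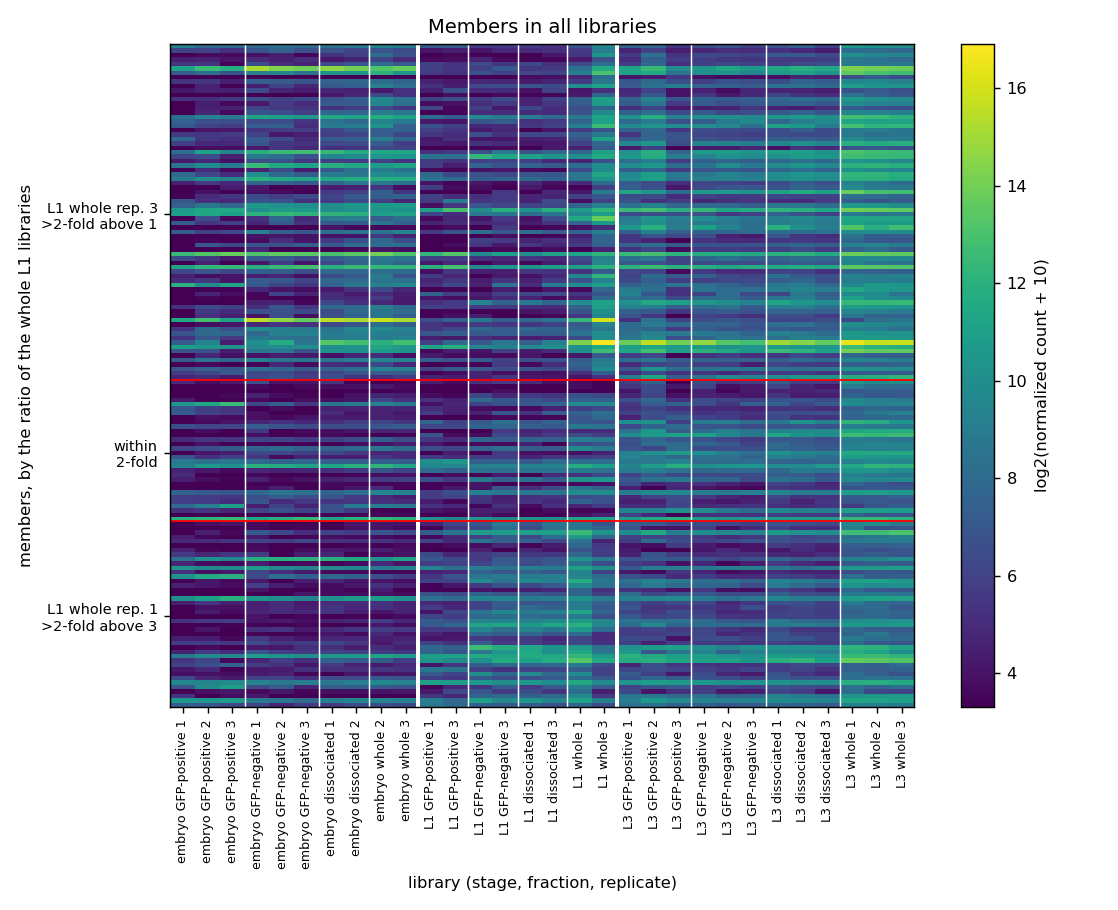
Normalized counts of the 150 members on a log2 scale after adding 10, 1 line per member and 1 column per library, in the order embryo, L1, L3 and within a stage GFP-positive, GFP-negative, dissociated, whole. Members are sorted by the ratio of the 2 whole L1 libraries, with red lines at a 2-fold ratio. The 3 whole L3 columns are brighter than the other L3 columns in most members. The 2 whole L1 columns are brighter in different members, and most cell fractions are darker.

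The L1 comparison of dissociated cells with whole larvae uses the same opening protocol on other animals and shares no library with the rule. The fitted level was lower in dissociated than in whole L1 in 136 of the 150 members. In this comparison 51 members were called lower in dissociated cells and 0 higher by edgeR (6.65% and 3.15% of all genes), so 34.0% of the members were lower. At an unadjusted p under 0.05, 78 members passed. The median log2 fold change over the members was -1.86, with quartiles of -3.80 and -0.70, and that over all genes was -0.03. Both dissociated libraries were below both whole libraries in 91 members and above them in 1 (30.5% and 21.3% of all genes). All 150 members had enough counts to enter the test. Within equal replicate numbers the median log2 ratio was -1.21 in replicate 1 and -1.48 in replicate 3, and 91 and 93 members were more than 2-fold lower (23.6% and 20.7% of all genes). For the comparison genes with E of at least 1 the median was -0.97, with 21 called lower and 0 higher.

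The L1 count depended on single libraries. It was 5 without dissociated replicate 1 and 5 without whole replicate 3, or 3.33% of the members in each, against 0.507% and 0.519% of all genes called lower in the same fits. Without dissociated replicate 3 it was 27 (18%, against 2.37% of all genes). With only dissociated and whole L1 libraries in the fit, 0 members were called, and 0 of all genes were, so that fit does not set the members apart from other genes. Its median was -1.85 over the members and 0.02 over all genes, and the members' median was below 0 in each of these fits. The list of members mattered as well. With members chosen from L3 GFP-positive libraries 1 and 3, an alternative added after the data were seen, 96 of 150 genes (64.0%) were lower in dissociated L1 cells, and the median was -4.67. With E below 0, 16 of 150 (10.7%) were lower, and the median was -0.16.

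Of the members called lower in dissociated L1 cells, rows 13147 and 16678 had the lowest log2 fold changes. Row 13147 had 0 and 1.82 normalized counts in dissociated L1 cells, against 34.2 and 753 in whole L1 larvae. These were 1 read over both dissociated libraries and 814 reads over both whole libraries, a pooled ratio of 0.00155 with a 95% counting interval of 3.91e-05 to 0.00864. The edgeR adjusted p was 0.0136. The call was lost without either dissociated library and without whole replicate 3. Row 16678 had 9.64 and 21.8 in dissociated L1 cells, against 1086 and 6885 in whole L1 larvae, a log2 fold change of -7.94 ± 1.19 (SE, edgeR adjusted p = 0.000911). It was called in every leave-one-out fit and not in the fit of the compared groups alone. Row 10853 had 154 and 584 in dissociated cells, against 18961 and 122669 in whole larvae (-7.45 ± 1.5, SE, edgeR adjusted p = 0.00329). That call was lost without dissociated replicate 1, at -6.79, without whole replicate 3, at -5.59, and in the fit of the compared groups alone. Row 7239 had 36.8 and 40.0, against 333 and 3096 (-5.31 ± 0.86, SE, edgeR adjusted p = 0.00103), and its call held in every leave-one-out fit and was lost in the fit of the compared groups alone. In rows 13147, 16678, 10853 and 7239, whole replicate 3 was more than 2-fold above whole replicate 1, and the fractions did not overlap.

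The 2 whole L1 libraries split the members. In 76 members (50.7%, against 14.2% of all genes) replicate 3 was more than 2-fold higher than replicate 1, in 42 replicate 1 was more than 2-fold higher than replicate 3, and in 32 they lay within 2-fold. In the 76, the median member had 104 normalized counts in whole replicate 1 and 703 in whole replicate 3. In the 42 it had 597 and 142. The calls followed this split: 44 of the 76, 5 of the 32 and 2 of the 42 members were called lower in dissociated L1 cells, with medians of -3.59, -1.36 and -0.66. Among all genes with replicate 3 more than 2-fold higher, 36.4% were called lower, against 1.95% of those within 2-fold and 0.923% of those higher in replicate 1. The whole libraries enter both the split and the difference, so the 2 quantities are not independent. In libraries that the split did not use, the 76 had a median of 305 in whole embryos and 833 in whole L3, the 32 had 17.9 and 619, and the 42 had 16.8 and 333. All genes split the same way had whole-embryo medians of 397 (replicate 3 higher), 348 (within 2-fold) and 20.4 (replicate 1 higher), so the order of the classes is not particular to the members. The place of the middle class differed. The 32 members within 2-fold, at 17.9, lay near the 42, and all genes within 2-fold, at 348, near those with replicate 3 higher. In dissociated L1 cells the medians were 29.2, 29.9 and 203. Replicate and sequencer coincide in L1 and cannot be told apart.

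**Figure D4:**
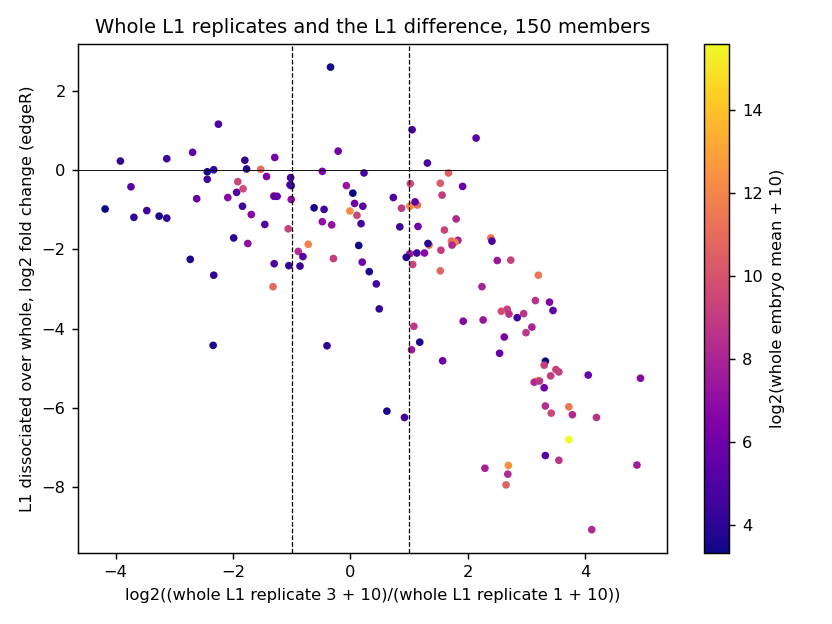
Each point is a member. The horizontal axis is log2 of whole L1 replicate 3 over whole L1 replicate 1 after adding 10 to each normalized count, the vertical axis is the edgeR log2 fold change of dissociated over whole L1 and the colour is the log2 level in whole embryos. Dashed lines mark 2-fold. Members to the right of the right-hand line lie lowest, with a median of -3.59, and both axes contain the whole L1 libraries.

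Embryos, opened by the other protocol, gave few calls in members or in all genes, of which 91 were called. Few calls therefore do not show that the members stayed level. Between dissociated and whole embryos 0 members were called lower and 1 higher (0.412% and 0.131% of all genes), and 14 had an unadjusted p under 0.05. DESeq2 called 2 members lower (1.33%, against 2.53% of all genes) and limma voom 1 (0.667%, against 2.79%). The median log2 fold change was -0.53 over the members, with quartiles of -1.09 and 0.00, and -0.05 over all genes. The dissociated libraries were both below the whole libraries in 63 members and both above in 21 (24.2% and 23.6% of all genes). Within replicate 2, 34 members were more than 2-fold lower in dissociated embryo cells and 4 more than 2-fold higher (7.06% and 2.83% of all genes). The median log2 ratio there was -0.33 over the members and -0.07 over all genes. The member called higher was row 2353. It had 97.7 and 44.4 normalized counts in dissociated embryo cells, against 0.56 and 0 in whole embryos. These were 251 reads and 1 read, a pooled ratio of 234 with a 95% counting interval of 41.7 to 9287, and the edgeR adjusted p was 0.000426. The call held under each alternative tried. Row 2353 also had reads in all sorted embryo libraries, with 26.8, 33.6 and 16.7 in GFP-positive and 61.4, 97.7 and 51.6 in GFP-negative cells. At L3 its order was the opposite, with 790, 602 and 518 in dissociated cells, against 2025, 1917 and 1782 in whole larvae.

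The difference between the stages was tested directly. In the interaction of stage and fraction, 16 members had a lower dissociated-to-whole ratio in L1 than in embryos and 0 a higher one (2.03% and 1.4% of all genes), with a median log2 difference of -1.58 over the members and -0.09 over all genes. Row 7239 was among them. In embryos it had 23493 and 16231 normalized counts in dissociated cells, against 9050 and 13401 in whole embryos, which is the reverse of its order in both larval stages. Its L1-minus-embryo difference was -6.09 ± 1.08 (SE, edgeR adjusted p = 0.0085). Row 10853 was also among them, with 10223 and 7549 in dissociated embryo cells, against 3897 and 7133 in whole embryos, and a difference of -8.09 ± 1.81 (SE, edgeR adjusted p = 0.0179). Neither row was called in the embryo comparison alone, where the log2 fold changes were 0.78 ± 0.70 and 0.64 ± 1.13 (SE, edgeR adjusted p = 0.751 and 0.902). The call of row 7239 was lost without whole L1 replicate 3, at -3.77, and without dissociated L1 replicate 1 or whole embryo replicate 2. That of row 10853 was lost when any of 6 of the 8 libraries was left out. The count of 16 was 0 without dissociated L1 replicate 1, where 0.00597% of all genes were called lower, and 34 (22.7%) without whole L1 replicate 1, where 5.27% of all genes were. Without whole L1 replicate 3 it was 1 (0.667%, against 0.0477% of all genes).

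**Figure D5:**
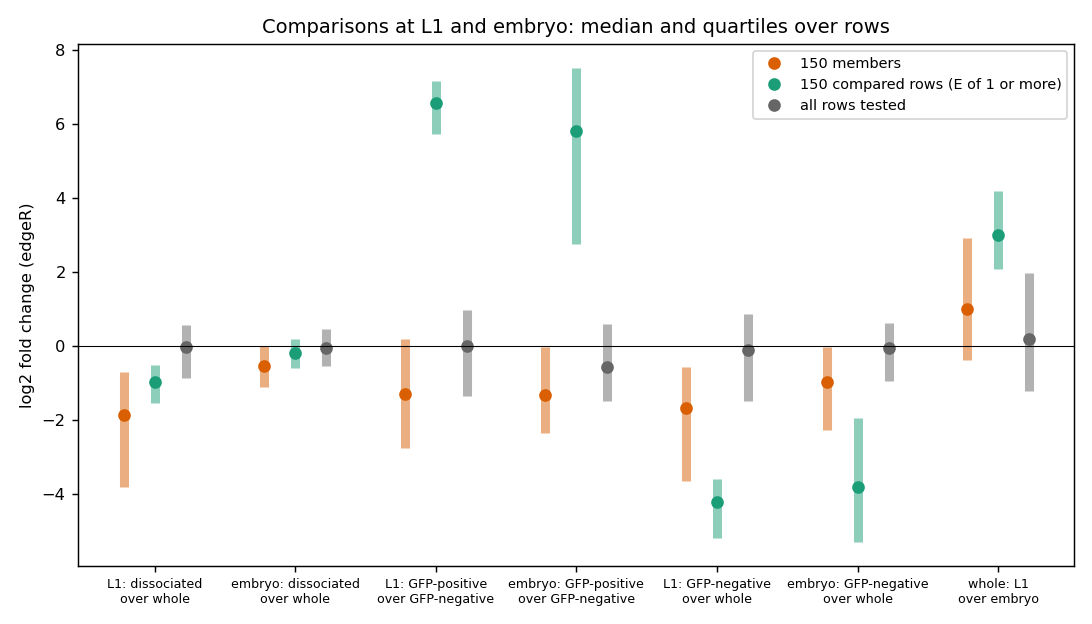
Medians (points) and quartiles (bars) of edgeR log2 fold changes in the 7 comparisons that share no library with the rule, for the 150 members, the 150 comparison genes with E of at least 1 and all genes tested. Bars show the spread over genes, not an error. The members are below all genes in the 6 comparisons of fractions, and the comparison genes are far above 0 in the L1 and embryo sorts, where the members are below 0. The limit on E at L3 separates these lists.

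The sorts of the earlier stages share no library with the rule. The limit on E took genes with E of 1 or more out of the members, but not out of all genes. The 7500 genes that met the limits are therefore the closer base. In L1, GFP-positive cells were called higher than GFP-negative cells in 7 members and lower in 33 (19.2% and 13.6% of all genes), with a median log2 fold change of -1.30 over the members and 0.00 over all genes. Both GFP-positive libraries were below both GFP-negative libraries in 71 members and above them in 21 (30.7% and 28.2% of all genes). In embryos 14 were called higher and 50 lower (18.8% and 26.1% of all genes), with a median of -1.31 over the members and -0.55 over all genes, and every GFP-positive library was below every GFP-negative library in 49 members and above in 14 (30.4% and 21.0% of all genes). Scaled by library totals alone, the embryo sort gave 12 higher and 61 lower members and 16.6% higher and 36.1% lower genes, and the median of all genes was -0.82. The GFP-positive mean was above the GFP-negative mean in 37 of the 150 members in embryos, 40 in L1 and 137 at L3, and in 2243, 2906 and 2862 of the 7500 genes that met the limits. The L3 count comes from values the rule used, and was 100 without GFP-positive replicate 2. The same ratio as E, made for L1, had a median of -0.71 over the members and -0.18 over those 7500 genes. Made for embryos, it had a median of -0.60 over the members and -0.45 over the 7500 genes, a smaller gap. For the comparison genes with E of at least 1, 137 were called higher and 0 lower in L1, and 120 higher and 4 lower in embryos. No test compared the sorts between stages.

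Calls of the 2 sorts overlapped in part, and the sorts share no library. Of the 33 members lower in the L1 sort, 12 were also lower in the embryo sort, which is 36.4% of the 33 and 24% of the 50 lower in embryos, and 5 were higher in embryos. Since 33.3% of all members were lower in the embryo sort, the 36.4% is near the share in the whole list. Of the 7 higher in the L1 sort, 1 was higher in embryos and 0 were lower. Of the 51 members called lower in dissociated L1 cells, 44 were not called in the L1 sort, 6 were lower in GFP-positive cells and 1 was higher.

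Row 11993 was the lowest in the L1 sort. It had 0 and 0 normalized counts in GFP-positive L1 cells, against 50.3 and 37.2 in GFP-negative cells, which is at least 26.5-fold lower when 3 reads are allowed over the GFP-positive group (edgeR adjusted p = 0.00159). It was among the few members lower in GFP-positive cells at L3 too, with 31.2, 15.5 and 0 in GFP-positive, against 32.9, 21.5 and 22 in GFP-negative cells, although these overlap. In embryos it had 0, 1.9 and 0 in GFP-positive and 3.91, 26 and 7.19 in GFP-negative cells (edgeR adjusted p = 0.0110). Row 2357 had 0 and 0 in GFP-positive L1 cells, against 9.54 and 2.48 in GFP-negative cells, or at least 4.36-fold lower (edgeR adjusted p = 0.0263), a call that was lost without either GFP-positive library or without GFP-negative replicate 1. Row 12230 was the highest, with 386 and 376 in GFP-positive L1 cells, against 54.7 and 29.7 in GFP-negative cells (3.28 ± 0.77, SE, edgeR adjusted p = 0.00184). In embryos the same gene did not lie higher in GFP-positive cells, with 8.58, 18.4 and 1.04, against 8.94, 11.1 and 25.5. Row 1794 came next with 43.6 and 512, against 33.0 and 44.6, and rests on 1 library: its log2 fold change of 3.06 was 0.06 without GFP-positive replicate 3.

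In the embryo sort, rows 11712 and 13453 were the lowest. Row 11712 had no read in the 3 GFP-positive embryo libraries, against 12.3, 14.8 and 1.31 normalized counts in the GFP-negative libraries, or at least 10.1-fold lower (edgeR adjusted p = 0.00227). In L1 it was low in GFP-positive cells as well, with 25.8 and 40.0, against 645 and 188 in GFP-negative cells (-3.57 ± 0.78, SE, edgeR adjusted p = 0.00117). At L3 the gates overlapped, with 1154, 2946 and 2131 in GFP-positive, against 1462, 1030 and 700 in GFP-negative cells. Row 13453 had no read in GFP-positive embryo cells either, against 2.23, 12.4 and 0.654 in GFP-negative cells, or at least 4.2-fold lower (edgeR adjusted p = 0.0308), and the call was lost without any 1 of the GFP-positive libraries or GFP-negative replicate 2. Row 6636 was the highest, with 117, 48.1 and 32.4 in GFP-positive embryo cells, against 0, 3.71 and 0 in GFP-negative cells. These were 216 reads and 3 reads, a pooled ratio of 85.7 with a 95% counting interval of 28.9 to 419 (edgeR adjusted p = 1.17e-05). Row 1747 had 1460, 2818 and 5948 in GFP-positive, against 68.7, 172 and 36.6 in GFP-negative embryo cells (5.27 ± 0.74, SE, edgeR adjusted p = 4.74e-06). In L1 it was lower in GFP-positive cells, with 5.34 and 17.4 in GFP-positive, against 52.9 and 96.6 in GFP-negative cells (-2.61 ± 0.92, SE, edgeR adjusted p = 0.0326), and at L3 it had 33.9, 141 and 173 in GFP-positive, against 84.8, 36.4 and 166 in GFP-negative cells.

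GFP-negative cells of the earlier stages also held less of the members than whole animals. In L1, 64 members were called lower in GFP-negative cells than in whole larvae and 2 higher (17.3% and 13.9% of all genes), with a median log2 fold change of -1.66 over the members and -0.09 over all genes. The 2 called higher were rows 2353 and 15231, and row 15231 was singled out after its values were seen. This comparison shares the whole L1 libraries with the dissociated one, and the lower count was 24 without whole replicate 3 (16.0%, against 8.63% of all genes). Scaled by library totals, 83 members were lower, but then 27.8% of all genes were, and the median of all genes was -0.76. With only GFP-negative and whole L1 libraries in the fit, 0 members and 0 of all genes were called. The medians of that fit were -1.79 over the members and -0.12 over all genes. In embryos 32 members were called lower in GFP-negative cells than in whole embryos and 4 higher (11.8% and 6.14% of all genes), with a median of -0.96 over the members and -0.04 over all genes. The 4 included rows 2353 and 16491. The lower count was 7 without whole embryo replicate 2, or 4.67% of the members, which is not above the 5.01% of all genes in that fit. With members chosen from L3 GFP-positive libraries 1 and 3, 105 were lower in L1 and 67 in embryos.

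By share of counts, the members took 0.195 ± 0.0693% in GFP-positive (SD, n = 3), 0.468 ± 0.0928% in GFP-negative (SD, n = 3) and 0.541 ± 0.0488% in dissociated embryo cells (SD, n = 2), against 0.659 ± 0.128% in whole embryos (SD, n = 2). In L1 they took 0.0788 and 0.140% in GFP-positive, 0.129 and 0.121% in GFP-negative and 0.166 and 0.153% in dissociated cells, against 0.441 and 1.42% in whole larvae. Every L1 cell library lay below both whole L1 libraries. In embryos dissociated replicate 2, at 0.576%, lay above whole replicate 3, at 0.569%, so those fractions overlapped. A share is led by the few members with most counts and can differ from the count of members that moved.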

How the data were processed

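Libraries were read as 2 × 150 bp, per the labels' protocols. Of 34 libraries in the labels, 30 have a column in the tables. L1 replicate 2, with 4 libraries, was not analysed here. The submitters' processing notes list DESeq2 1.28.1, deepTools 3.2.0, SAMtools 1.9, featureCounts 1.6.4, HISAT2 2.1.0 and fastp 0.20.0, and the build ce11, without saying what each did. Counting options, strand included, are not given in the sources used here, so genes that overlap or share sequence are uncertain. The deposited raw counts are whole numbers per row, each row taken as 1 gene, with a lowest row total of 75. The authors' normalized values are a deposited signal: each library's raw counts multiplied by its own constant (largest relative deviation 4.97e-07). The deposited rlog table and the gene annotation were not used.

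Raw counts of the 12 groups were fitted together in edgeR 4.0.16 (R 4.3.3) with TMM scaling, filterByExpr at a minimum count of 10 (16758 of 16762 genes), 1 mean per group and 18 residual degrees of freedom. Tests were two-sided quasi-likelihood F-tests called at a Benjamini-Hochberg adjusted p under 0.05, taken over the whole tested table. The SE is the size of the log2 fold change divided by the square root of F. Counting intervals are exact (Clopper-Pearson, 95%), and a group with no reads was set to a floor of 3 reads over the group. Both cover counting error only. Simulated counts, in which 200 of 16758 genes were changed, gave a check of the calls. Depending on the comparison, 1 to 7% of 2-fold changes and 21 to 43% of 4-fold changes were called. For dissociated over whole animals these shares were 4 and 32% in L1 and 3 and 23% in embryos. Unchanged genes made up 0 to 10% of the calls, with the 10% in whole L1 over whole embryos. Most changes of these sizes were thus missed, and a gene without a call may still differ.

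The rule, members and comparisons were chosen with earlier results of these data known. The planned marker lists need gene names and could not be applied. Single genes were named by rule: the lowest D, the highest whole L3 means, and the extreme log2 fold changes among members called in each dissociation and sort comparison. The rule gave 5 or 3 of each, and because rows have no names its first 2 were used.

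Same-numbered GFP-positive and GFP-negative libraries deviated together from their group means across genes in embryos (r = 0.279, 0.261 and 0.161) and in L3 (0.178, 0.194 and 0.235). The main fit, which gave the calls, did not use this pairing. It entered the ratios within equal replicate numbers. A fit with stage and replicate number as a block was an alternative. The others were RLE scaling, library totals, no filter, a fit of the compared groups, DESeq2 1.42.0, limma 3.58.1 voom, an adjusted p under 0.01, each library or the HiSeq X-ten libraries left out, and other limits of the rule. No 2 replicates were alike within sampling noise. Chi-square per degree of freedom ran from 29.7, between whole L3 replicates 2 and 3, to 555, between whole L1 replicates 1 and 3. Beyond the label "biological replicate" nothing says that replicates came from separate cultures. The p-values rest on a spread between libraries estimated over all 12 groups. They do not measure the spread of the compared libraries alone.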

Additional observations from a re-analysis of the deposited data

Results flagged for a closer look

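The ratio of dissociated to whole animals differed between L1 and embryos in 16 members, all with the lower ratio in L1, by the edgeR interaction of stage and fraction (adjusted p under 0.05). The median log2 difference over the members was -1.58, with a negative sign in 121 of 150. Larvae and embryos were opened by different protocols, so stage and protocol cannot be told apart. In whole L1 larvae, replicate 3 exceeded replicate 1 more than 2-fold in 13 of the 16, in 50.7% of the 150 members and in 14.2% of all genes. The part of that library in the difference was not tested, and without it 1 member (0.667%) was called, against 0.0477% of all genes.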

How the results depend on the processing

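Values are percentages of members called lower (higher for whole L1 over whole embryos), and the cause of a change was not tested. With L1 or embryo libraries left out in turn, they ranged from 3.33 to 38.7% for dissociated over whole L1 (34.0% with all libraries), 0.0 to 0.667% for dissociated over whole embryos (0.0%), 10.7 to 22% for the L1 sort (22%), 23.3 to 32.0% for the embryo sort (33.3%), 16.0 to 41.3% for GFP-negative over whole L1 (42.7%), 4.67 to 18.7% for GFP-negative over whole embryos (21.3%), 18.7 to 28.7% for whole L1 over whole embryos (30.0%) and 0.0 to 22.7% for the L1-minus-embryo difference (10.7%). The rule without each L3 library kept 17.3 to 92.0% of the members. With all libraries, the shares of all genes were 6.65% (dissociated over whole L1), 0.412% (dissociated over whole embryos), 13.6% (L1 sort) and 26.1% (embryo sort). They were 17.3% (GFP-negative over whole L1), 11.8% (GFP-negative over whole embryos), 26.3% (whole L1 over whole embryos) and 2.03% (the difference). These shares moved between fits as well, so they are no base for the ends of the ranges. In the embryo sort the lowest value, 23.3%, stood against 20.4% of all genes in its own fit. The highest there, 32.0%, stood against 27.0%. For dissociated over whole L1 and for the difference, shares of all genes in the same fits are given in the Results.

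A fit of the compared groups alone leaves fewer residual degrees of freedom. Its values were 0.0% for dissociated over whole L1, 12.2% for the L1 sort, 12.8% for the embryo sort, 0.0% for GFP-negative over whole L1 and 0.0% for the difference. All genes gave 0.0, 8.12, 7.83, 0.0 and 0.0421%. At an adjusted p under 0.01 the members gave 16.7, 10.7, 16.0, 24.7 and 1.33% in that order, and 11.3% for GFP-negative over whole embryos. All genes gave 2.76, 7.63, 12.3, 9.88 and 0.113%, and 6.75%. DESeq2 gave 35.3% in the L1 sort, 21.3% for the difference and 1.33% for dissociated over whole embryos (20.2, 6.21 and 2.53% of all genes). For dissociated over whole embryos, RLE scaling, library totals and limma voom each gave 0.667% (0.609, 0.746 and 2.79% of all genes). Voom gave 6.0% for the difference (1.51% of all genes). Without the HiSeq X-ten libraries, no L1 group has a replicate left. The median log2 fold change of the L1 sort was then -1.42 over the members and 0.00 over all genes. The share of members called lower fell to near that of all genes.

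With members chosen at E below 0, which shared 8.67% with the 150, the values were 10.7% (dissociated over whole L1), 2.67% (dissociated over whole embryos), 8.0% (L1 sort), 18% (embryo sort), 12.7% (GFP-negative over whole L1), 8.67% (GFP-negative over whole embryos) and 1.33% (the difference). With members chosen from L3 GFP-positive libraries 1 and 3, an alternative added after seeing the data, they were 64.0% (dissociated over whole L1), 13.3% (L1 sort), 70.0% (GFP-negative over whole L1), 44.7% (GFP-negative over whole embryos), 12.7% (whole L1 over whole embryos) and 18% (the difference). The 300 lowest D gave 0.333% for dissociated over whole embryos. These lists were read from the fit with all libraries, so its shares of all genes, given above, apply to them.

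With the replicate block, the values were 36.7% for dissociated over whole L1, 0.0% for dissociated over whole embryos, 26.7% for the L1 sort, 37.3% for the embryo sort, 44.0% for GFP-negative over whole L1, 25.3% for GFP-negative over whole embryos, 22% for whole L1 over whole embryos and 9.33% for the difference, each within 1.5 times the unblocked value. In that fit, the shares of all genes were 7.42% (dissociated over whole L1), 0.149% (dissociated over whole embryos) and 30.1% (embryo sort). They were 19.1% (GFP-negative over whole L1), 11.8% (GFP-negative over whole embryos), 18.3% (whole L1 over whole embryos) and 1.5% (the difference). In the L1 sort, 2510 of all 16758 genes were called lower. The block fits 2 same-numbered pairs in L1 and 1 in dissociated and whole embryos. Over the alternatives, the calls of single genes held in 289 fits and were lost, in the same direction, in 103. Members had low counts outside whole larvae, so a member without a call may still differ.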
